A study of Mus musculus with 16 samples.

Results

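A list of 36 genes that carry fatty acids into heart cells and burn them there was followed through hearts with and without pressure overload, in mice with and without a conditional knockout (cKO) of Zbtb17, which encodes the zinc finger transcription factor Miz-1. One probe set was taken for each gene, the one of highest mean over the 16 arrays among those assigned to that symbol alone, and 32 of the 36 genes had such a probe set. Acsl1 and Ucp2 had no probe set under their symbol in the annotation used. Acsl3 and Cpt1b had only a probe set shared with a second symbol (Utp14b and Gm44502), so these 4 genes are not reported. All 32 measured genes lay above the filter on low signal (a mean log2 intensity above 4.37), as did 21333 of the 35556 probe sets on the array.

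The 4 groups held 4 male mice each on the C57BL/6 background. They were control mice after sham surgery, control mice after transverse aortic constriction (TAC), cKO mice after sham surgery, and cKO mice after TAC. TAC narrows the aortic arch and makes the left ventricle pump against a raised pressure. Mice were 8 to 10 weeks old at surgery, and heart RNA was taken 4 weeks later and hybridised to Affymetrix Mouse Gene 1.0 ST arrays. The labels call the genotypes control and Zbtb17 cKO. The Cre driver, the deleted part of the gene and the alleles that control mice carry are not given in the sources used here. Values are log2 intensities; group values are means ± SD over 4 hearts, and differences between groups are log2 fold changes ± SE from limma, with p-values adjusted by the Benjamini-Hochberg method over all 21333 probe sets.

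The adult heart draws most of its energy from fatty acids. Lipoprotein lipase frees them from circulating lipids, CD36 and the fatty acid transport proteins bring them into the cell, and FABP3 carries them through the cytosol. Acyl-CoA synthetases activate them, the carnitine shuttle moves long chains into mitochondria, and the enzymes of beta-oxidation shorten them step by step, passing electrons to the respiratory chain through the electron transfer flavoprotein. Peroxisomes shorten very long chains, thioesterases release the acid from CoA again, and malonyl-CoA holds back entry into mitochondria. Many of these genes are targets of the nuclear receptor PPAR-alpha and its coactivator PGC-1alpha, and hypertrophied hearts are often described as using less fat and more glucose.

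The targeted gene did not separate the genotypes on this array. Zbtb17 gave 6.36 ± 0.13 in control sham and 6.45 ± 0.11 in control TAC hearts, with 6.52 ± 0.07 after sham and 6.50 ± 0.02 after TAC in cKO hearts, and its cKO minus control difference over both surgeries was 0.11 ± 0.06 (limma adjusted p = 0.361). Since the deleted part is not stated, its signal is no check of which mice carried the deletion. Cardiomyocyte markers averaged 13.04 to 13.27 on the 16 arrays. The control sham arrays were less alike, with a mean Spearman rho to their own group of 0.974 to 0.981, against 0.984 to 0.986 in the other groups. Their array medians were 4.975, 4.96, 4.93 and 4.87, where the other arrays had 4.85 to 4.92. Control sham hearts enter TAC in control hearts, genotype after sham and the interaction. The part of this lower likeness in those differences was not tested. The atrial light chain Myl7 ranged from 4.30 to 8.83 and exceeded 6 in 6 hearts: cKO TAC hearts 1 and 2, cKO sham heart 2, control TAC hearts 1 and 2 and control sham heart 3. The stress-induced gene Atf3 ranged from 6.13 to 10.18 and exceeded 8 in 3 sham hearts, cKO sham heart 1 and control sham hearts 3 and 4. Nppa, the natriuretic peptide gene used as a sign of cardiac load, spanned 11.17 to 12.11 in control sham and 9.86 to 12.92 in control TAC hearts, so these groups overlapped. In RNA of heart tissue, fewer cells of a type and less RNA per cell cannot be told apart.

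Across the 32 genes, the 4 groups took a crossed order. In control hearts, 31 of 32 genes had a higher mean after TAC than after sham, with a median log2 fold change of 0.126, where 54.8% of all probe sets tested were above 0 with a median of 0.015. The exception was Acacb (-0.07 ± 0.16), and Crat lay at 0.00 ± 0.10. In cKO hearts, 23 of 32 were lower after TAC, with a median of -0.096 against 0.007 over all probe sets, of which 51.9% were above 0. Both medians were smaller than the typical spread of a gene between hearts (SD pooled over the 4 groups, median 0.17), though some single genes differed by more than their own pooled SD. By limma 0 of 32 genes passed an adjusted p of 0.05 in either genotype, as did 0% of all probe sets in both. At an unadjusted p under 0.05, 6 of 32 genes (18.8%) were higher after TAC in control hearts, beside 4.9% of all probe sets, and 0 were lower, beside 3.42%. In cKO hearts 1 of 32 (3.12%) was lower, beside 2.93%, and 0 were higher, beside 3.85%. The control and cKO arrays of these comparisons are separate hearts.

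**Figure D1:**
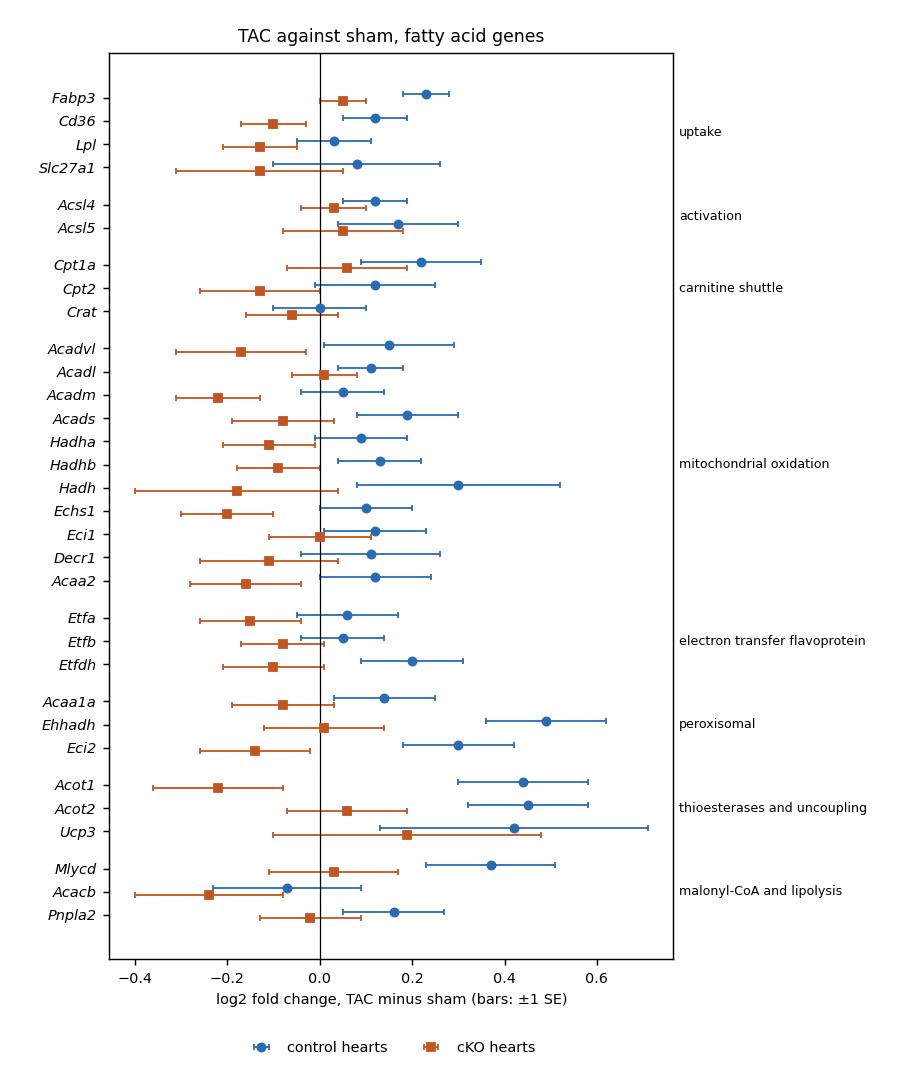
Log2 fold change of TAC against sham for each of the 32 genes (x axis, ± SE from limma), ordered by role on the y axis, in control hearts and in cKO hearts (4 against 4 each). In control hearts 31 of 32 points lie above 0, and in cKO hearts 23 of 32 lie below 0.

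The uptake genes differed little between hearts. Fabp3 (probe set 10508614), the heart's fatty acid binding protein, read 12.96, 12.76, 12.70 and 12.88 in control sham hearts and 13.11, 13.03, 13.05 and 13.02 in control TAC hearts. It read 12.85, 12.85, 13.00 and 12.92 in cKO sham hearts and 12.98, 12.91, 12.94 and 12.97 in cKO TAC hearts. All 4 control TAC hearts stood above the 12 other hearts, and the pooled SD (0.07) was, with that of Acsl4, the smallest of the list. The TAC minus sham difference was 0.23 ± 0.05 in control hearts (1.17-fold, adjusted p = 0.364), 0.05 ± 0.05 in cKO hearts (adjusted p = 0.907) and 0.14 ± 0.04 over both genotypes (adjusted p = 0.236). Fabp3 had the smallest p of the 32 genes in the first and the last of these. Fabp3, Etfdh, Ehhadh and Acot2 were the genes whose control TAC hearts all exceeded their control sham hearts (12.5% of the list, beside 2.27% of all probe sets). A second Fabp3 probe set differed from this one by 0.05 to 0.16 per heart, and the mean of the pair gave 0.22 ± 0.06 in control hearts (adjusted p = 0.487).

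Cd36 (probe set 10528207), the main fatty acid receptor of the cell surface, read 12.46, 12.28, 12.39 and 12.47 in control sham hearts and 12.48, 12.51, 12.67 and 12.58 in cKO sham hearts. After TAC it read 12.63, 12.44, 12.59 and 12.43 in control and 12.47, 12.31, 12.45 and 12.60 in cKO hearts. The cKO sham hearts thus lay just above the control sham hearts without overlap (0.16 ± 0.07, adjusted p = 0.435), and the TAC groups overlapped. Lpl (probe set 10572130), which encodes lipoprotein lipase, had the same kind of gap after sham, with 12.63, 12.81, 12.80 and 12.79 in control and 12.85, 12.89, 12.83 and 12.91 in cKO hearts (0.11 ± 0.08, adjusted p = 0.605). Gaps of this kind after sham were found for these 2 genes (6.25% of the list) and for 2.95% of all probe sets. After TAC it read 12.68, 12.77, 13.00 and 12.69 in control and 12.73, 12.55, 12.83 and 12.85 in cKO hearts, where the groups overlapped, and TAC minus sham in cKO hearts was -0.13 ± 0.08 (adjusted p = 0.763). Slc27a1, the fatty acid transport protein FATP1, was more scattered, from 8.80 to 9.66, with differences of 0.08 ± 0.18 in control and -0.13 ± 0.18 in cKO hearts after TAC. Endothelial cells also hold Cd36 and are the site where lipase acts; all 10 endothelial markers were below 0 in cKO minus control after TAC (median -0.227), and 9 of 10 were below 0 after sham (median -0.146), while the marker mean per array ran from 8.65 to 9.28. The part of endothelial cells in the uptake values was not tested.

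Of the activation enzymes, Acsl4 and Acsl5 were measured. Acsl4 (probe set 10607089), a synthetase that prefers arachidonic acid, read 6.65, 6.58, 6.42 and 6.62 after sham and 6.66, 6.67, 6.64 and 6.80 after TAC in control hearts, and 6.67, 6.69, 6.65 and 6.54 after sham and 6.62, 6.68, 6.67 and 6.70 after TAC in cKO hearts. The groups overlapped, and its TAC minus sham differences were 0.12 ± 0.07 in control and 0.03 ± 0.07 in cKO hearts. Acsl5, another long-chain synthetase, ranged from 5.99 to 6.78 and lay at 0.17 ± 0.13 and 0.05 ± 0.13 in the same comparisons.

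The carnitine shuttle was represented by Crat, Cpt1a and Cpt2. Crat (probe set 10481474), carnitine acetyltransferase, read 11.19, 11.58, 11.26 and 11.42 in control sham and 11.36, 11.39, 11.53 and 11.18 in control TAC hearts. It read 11.51, 11.43, 11.44 and 11.28 in cKO sham and 11.32, 11.15, 11.57 and 11.39 in cKO TAC hearts, and all 4 groups overlapped. Cpt1a, the carnitine palmitoyltransferase of the outer mitochondrial membrane that is most abundant in liver, was one of 2 genes (with Acadl) whose cKO mean was higher after both surgeries, at 0.21 ± 0.13 after sham and 0.05 ± 0.13 after TAC. Cpt2, the inner-membrane enzyme of the shuttle, gave 0.12 ± 0.13 for TAC in control and -0.13 ± 0.13 in cKO hearts. The heart's own outer-membrane enzyme, Cpt1b, is among the 4 genes not reported.

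The 11 genes of mitochondrial beta-oxidation lay within narrow bounds. After TAC all 11 were above 0 in control hearts, from 0.05 for Acadm to 0.30 for Hadh (median 0.120), and 10 of 11 were below 0 in cKO hearts, with a median of -0.115. The exception in cKO hearts was Acadl, the long-chain acyl-CoA dehydrogenase (0.01 ± 0.07). Acadm (probe set 10502951), the medium-chain acyl-CoA dehydrogenase, read 12.15, 12.22, 12.23 and 12.23 in cKO sham hearts and 12, 11.72, 12.11 and 12.11 in cKO TAC hearts. Those groups did not overlap, and the difference was -0.22 ± 0.09 (0.857-fold, adjusted p = 0.726). Groups without overlap in this direction made up 6.25% of the genes (Acadm and Acot1) and 2.08% of all probe sets. In control hearts Acadm read 11.92, 12.12, 12.07 and 12.22 after sham and 12.29, 12.05, 12.23 and 11.97 after TAC, with overlap (0.05 ± 0.09).

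Hadha (probe set 10528929), the large subunit of the trifunctional protein that carries out the last steps on long chains, read 12, 12.28, 12.10 and 12.29 in control sham hearts and 12.30, 12.27, 12.41 and 12.05 in control TAC hearts. It read 12.29, 12.34, 12.22 and 12.34 in cKO sham hearts and 12.14, 11.90, 12.34 and 12.37 in cKO TAC hearts, with cKO TAC heart 2 alone below 12. Echs1 (probe set 10568939), the short-chain enoyl-CoA hydratase, read 10.04, 10.09, 10.24 and 10.33 in cKO sham and 10.03, 9.63, 10.03 and 10.21 in cKO TAC hearts (-0.20 ± 0.10, adjusted p = 0.737). In control hearts it read 9.89, 10.11, 9.96 and 10.02 after sham and 10.09, 9.99, 10.17 and 10.13 after TAC. Both pairs of groups overlapped, and cKO TAC heart 2 was again the lowest of 16. Without that heart the cKO difference of Echs1 was -0.08 and that of Acadm -0.13.

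Acads (probe set 10532926), the short-chain acyl-CoA dehydrogenase, was the beta-oxidation gene that differed most between genotypes after TAC. It read 9.84, 9.73, 9.92 and 9.74 in control TAC hearts and 9.61, 9.27, 9.57 and 9.68 in cKO TAC hearts, without overlap (-0.28 ± 0.11, adjusted p = 0.629). After sham, control hearts read 9.41, 9.92, 9.50 and 9.63 and cKO hearts 9.64, 9.44, 9.59 and 9.77, so there the groups overlapped fully (0.00 ± 0.11). Hadh, the short- and medium-chain hydroxyacyl-CoA dehydrogenase, had the widest scatter of this role, and the scatter lay in the control hearts. Its SD was 0.42 in control sham and 0.50 in control TAC hearts against 0.07 and 0.20 in cKO sham and cKO TAC hearts; this gene was singled out after its values were seen, and the difference in spread was not tested. Control hearts ran from 11.21 to 12.15 after sham and from 11.23 to 12.36 after TAC.

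Group means of the other beta-oxidation genes lay close together, and their hearts overlapped. Hadhb, the small subunit of the trifunctional protein, averaged 11.87 ± 0.12 in control sham and 12 ± 0.10 in control TAC hearts, with 11.93 ± 0.05 after sham and 11.83 ± 0.19 after TAC in cKO hearts. Acadvl, the very-long-chain acyl-CoA dehydrogenase, averaged 10.27 ± 0.14, 10.41 ± 0.19, 10.38 ± 0.13 and 10.21 ± 0.32 in the same order. Acaa2, the mitochondrial thiolase, averaged 12.11 ± 0.05, 12.23 ± 0.18, 12.19 ± 0.03 and 12.03 ± 0.32. In these 3 genes cKO TAC was the lowest group mean and control TAC the highest, and the SD was largest in cKO TAC hearts. Decr1 and Eci1, which handle the double bonds of unsaturated chains, averaged 10.37 ± 0.14 and 10.56 ± 0.11 after sham and 10.48 ± 0.17 and 10.68 ± 0.13 after TAC in control hearts, and 10.36 ± 0.08 and 10.54 ± 0.08 after sham and 10.25 ± 0.40 and 10.54 ± 0.29 after TAC in cKO hearts. These 2 genes had no cKO excess after sham (-0.01 ± 0.15 and -0.02 ± 0.11).

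The electron transfer flavoprotein and its oxidoreductase take electrons from the acyl-CoA dehydrogenases. Etfb (probe set 10552418), the beta subunit, read 11.86, 11.80, 11.79 and 11.92 in control sham and 11.95, 11.83, 11.94 and 11.83 in control TAC hearts, with 11.80, 11.81, 11.90 and 11.92 after sham and 11.76, 11.46, 11.88 and 12.01 after TAC in cKO hearts. These groups overlapped, and apart from cKO TAC heart 2 every heart lay between 11.76 and 12.01. Etfdh, the oxidoreductase, was higher after TAC in every control heart (10.89 to 11.19) than in the control sham hearts (10.73 to 10.88), by 0.20 ± 0.11 (adjusted p = 0.660). Etfa, the alpha subunit, gave 0.06 ± 0.11 in control and -0.15 ± 0.11 in cKO hearts.

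The peroxisomal genes and the thioesterases had the largest differences after TAC in control hearts, with medians of 0.295 over Acaa1a, Ehhadh and Eci2 and 0.443 over Acot1, Acot2 and Ucp3. Ehhadh (probe set 10438575), the bifunctional enzyme of peroxisomal beta-oxidation, read 5.39, 5.77, 5.61 and 5.89 in control sham hearts and 6.20, 5.98, 6.28 and 6.15 in control TAC hearts. The groups did not overlap, and the difference was 0.49 ± 0.13 (1.40-fold, adjusted p = 0.405). In cKO hearts it read 5.74, 6.01, 6.18 and 6.32 after sham and 6.09, 5.89, 6.19 and 6.14 after TAC, with overlap (0.01 ± 0.13). Control sham hearts were the low group here, and cKO minus control after sham was 0.40 ± 0.13 (adjusted p = 0.367), the smallest p of the list in that comparison.

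Eci2 (probe set 10408656), a peroxisomal enoyl-CoA isomerase, read 8.60, 8.33, 8.47 and 8.56 after sham and 8.96, 8.52, 8.85 and 8.81 after TAC in control hearts, and 8.62, 8.58, 8.84 and 8.73 after sham and 8.56, 8.23, 8.73 and 8.69 after TAC in cKO hearts. Control TAC hearts 1, 3 and 4 lay above all control sham hearts and heart 2 did not, and the difference was 0.30 ± 0.12 (adjusted p = 0.536), against -0.14 ± 0.12 in cKO hearts. Acaa1a, the peroxisomal thiolase, read 6.05 to 6.09 in the 4 cKO TAC hearts and 6.19 to 6.52 in the 4 control TAC hearts, without overlap (-0.24 ± 0.11, adjusted p = 0.645).

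Acot1 and Acot2 encode a cytosolic and a mitochondrial acyl-CoA thioesterase of closely similar sequence, and they are neighbours on chromosome 12, where their RefSeq starts lie 21641 bases apart (GRCm38.p6). Probes for such close copies can share signal, so the pair is not wholly independent. Acot1 had the lowest mean over all arrays of the genes measured (4.93), not far above the filter value of 4.37. It lay below the stricter filter value of 5.61 used as an alternative, whereas Acot2 averaged 10.65. The part of Acot2 or of background in the Acot1 signal was not tested. Acot1 (probe set 10397148) read 4.78, 4.91, 4.56 and 4.91 in control sham hearts and 5.64, 4.98, 5.42 and 4.89 in control TAC hearts. Control TAC hearts 1 and 3 stood clear of every other heart and the other two did not; the difference was 0.44 ± 0.14 (1.36-fold, adjusted p = 0.482). In cKO hearts Acot1 read 4.98, 4.90, 4.95 and 4.99 after sham and 4.70, 4.55, 4.83 and 4.86 after TAC, so the cKO TAC hearts lay below the cKO sham hearts without overlap (-0.22 ± 0.14, adjusted p = 0.788). They also lay below all control TAC hearts, with a difference of -0.50 ± 0.14 (0.708-fold, adjusted p = 0.563).

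Acot2 showed the same split among the control TAC hearts. Its probe set (10397145) read 10.34, 10.66, 10.38 and 10.61 in control sham and 11.17, 10.73, 11.22 and 10.69 in control TAC hearts, without overlap (0.45 ± 0.13, 1.37-fold, adjusted p = 0.462). In cKO hearts it read 10.47, 10.54, 10.59 and 10.59 after sham and 10.57, 10.28, 10.78 and 10.81 after TAC, with overlap (0.06 ± 0.13). Over both genotypes the TAC difference of Acot2 was 0.26 ± 0.09 (adjusted p = 0.304) and that of Ehhadh 0.25 ± 0.09 (adjusted p = 0.303). Together with Fabp3 these were the 3 genes with an unadjusted p under 0.05 in that comparison (9.38% of the list, beside 7.24% of all probe sets higher); 0 were lower, beside 4.8%. Over both genotypes 19 of 32 genes were above 0 (median 0.041), beside 53.9% of all probe sets, and 0 of 32 passed the adjusted threshold, as did 0% of all probe sets.

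Because the 2 thioesterases varied together, their upstream sequences are shown. Each line is the 250 bases before the RefSeq start in GRCm38.p6, 5′ to 3′ on the gene's plus strand; Acot1 lies at chr12:84009252-84009501 and Acot2 at chr12:83987611-83987860.
Acot1: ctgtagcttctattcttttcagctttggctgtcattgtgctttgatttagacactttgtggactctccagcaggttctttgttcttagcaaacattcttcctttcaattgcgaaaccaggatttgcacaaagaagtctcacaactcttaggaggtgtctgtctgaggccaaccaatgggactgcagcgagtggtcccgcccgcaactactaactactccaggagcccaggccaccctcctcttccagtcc
Acot2: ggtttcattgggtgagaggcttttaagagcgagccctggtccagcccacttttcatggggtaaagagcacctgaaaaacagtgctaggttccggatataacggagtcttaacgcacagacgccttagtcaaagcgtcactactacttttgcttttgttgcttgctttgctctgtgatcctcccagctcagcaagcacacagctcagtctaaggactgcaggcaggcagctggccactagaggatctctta
In a global alignment that allowed gaps, 128 of the 250 bases of Acot1 matched Acot2 (51.2%), where the median of Acot1 against the other windows of the list was 52.0%, so this pair was no more alike than that median. Neither window held any of the 3 nuclear receptor motifs searched, described further on.

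Ucp3 (probe set 10555378), the mitochondrial uncoupling protein of muscle, was the most variable gene (pooled SD 0.47). It read 6.33, 6.93, 5.76 and 6.66 in control sham and 7.18, 6.60, 6.99 and 6.60 in control TAC hearts. It read 5.27, 5.89, 5.92 and 6.71 in cKO sham and 6.17, 5.59, 6.17 and 6.63 in cKO TAC hearts. Its cKO means were the lower ones after both surgeries, though every pair of groups overlapped. The cKO minus control difference was -0.47 ± 0.29 after sham (adjusted p = 0.578), -0.70 ± 0.29 after TAC (adjusted p = 0.634) and -0.59 ± 0.21 over both (0.665-fold, adjusted p = 0.224). The last was the one gene of the 32 with an unadjusted p under 0.05 in that comparison (3.12%, beside 6.68% of all probe sets lower), and 0 were higher, beside 8.24%; 0 of 32 passed the adjusted threshold, beside 0.0188% of all probe sets.

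**Figure D2:**
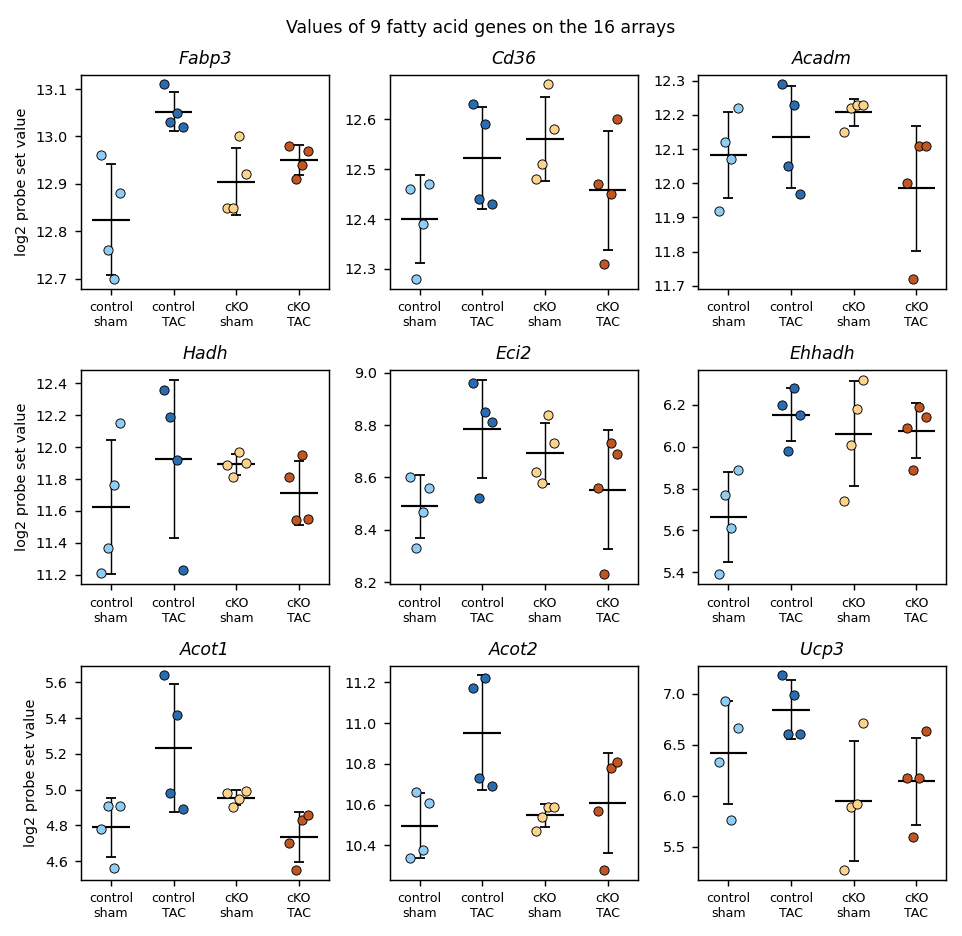
Log2 intensity (y axis) of 9 genes in each of the 16 hearts (points) by group (x axis), with the group mean and SD. Control TAC hearts lie above all control sham hearts for Fabp3, Ehhadh and Acot2, Acot1 is highest in control TAC hearts 1 and 3, and Hadh is most scattered in control hearts.

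The 3 genes around malonyl-CoA and stored fat were Mlycd, Acacb and Pnpla2. Mlycd, which breaks malonyl-CoA down, was 0.37 ± 0.14 higher after TAC in control hearts (1.29-fold, adjusted p = 0.508) and at 0.03 ± 0.14 in cKO hearts. Acacb, the mitochondrial acetyl-CoA carboxylase that makes malonyl-CoA, lay at -0.07 ± 0.16 and -0.24 ± 0.16. Pnpla2 (probe set 10558921), the lipase that opens fat droplets, read 9.60, 10.08, 9.84 and 9.98 in control sham and 9.96, 9.98, 10.30 and 9.91 in control TAC hearts, with 9.99, 9.93, 9.97 and 9.99 after sham and 10.09, 9.74, 10.01 and 9.95 after TAC in cKO hearts. Those 4 groups overlapped, with differences of 0.16 ± 0.11 in control and -0.02 ± 0.11 in cKO hearts. Adipocytes also express Pnpla2 and Lpl. Of 8 adipocyte markers 7 had a probe set and 4 passed the filter, and the mean of the 7 per array ran from 4.46 to 5.53, highest in a cKO TAC (5.53) and a cKO sham (5.52) heart. Adipoq lay at 3.64 to 4.71, around the filter value, and the part of adipocytes was not tested.

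Between genotypes the direction turned with surgery. After sham, 26 of 32 genes had a higher mean in cKO than in control hearts, with a median of 0.109 where all probe sets had 0.002 and 50.3% lay above 0. With each array centred on its median instead, that count was 31 and the median of all probe sets was 0.061. After TAC, 30 of 32 were lower in cKO hearts, with a median of -0.130 where all probe sets had -0.005 and 48.2% lay above 0. In all, 24 genes were higher in cKO hearts after sham and lower after TAC, 6 were lower after both (Acaa1a, Acads, Acsl5, Decr1, Eci1 and Ucp3) and 2 were higher after both. Averaged over surgery this left 14 above and 18 below 0, with a median of -0.010, beside 48.8% of all probe sets above 0, and median centring turned the split to 19 above and 13 below.

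By limma, 0 of 32 genes passed the adjusted threshold after sham, beside 0.0234% of all probe sets, and 0 of 32 after TAC, beside 0.00469%. At an unadjusted p under 0.05, 2 of 32 were higher after sham (Ehhadh and Cd36; 6.25%, beside 5.96%) and 0 lower (beside 4.72%). After TAC 5 of 32 were lower (Acot1, Acot2, Acads, Ucp3 and Acaa1a; 15.6%, beside 3.75%) and 0 higher (beside 3.83%). The count of 5 rested on single hearts: it was 1 without control TAC heart 1 or 3, 2 without cKO TAC heart 2, 8 without control TAC heart 4 and 10 without cKO TAC heart 4. Fabp3, Acads, Acaa1a and Acot1 were lower in every cKO TAC heart than in every control TAC heart (12.5% of the list, beside 1.89% of all probe sets). Without the 6 hearts with Myl7 above 6, the split after TAC was even, with 16 of 32 below 0, a median of 0 and 0 genes at an unadjusted p under 0.05. That choice removed hearts 1 and 2 of both TAC groups and compared 2 hearts with 2, so the smaller groups and the atrial signal cannot be told apart. Without cKO TAC heart 2 alone it was 23 of 32 with a median of -0.042.

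**Figure D3:**
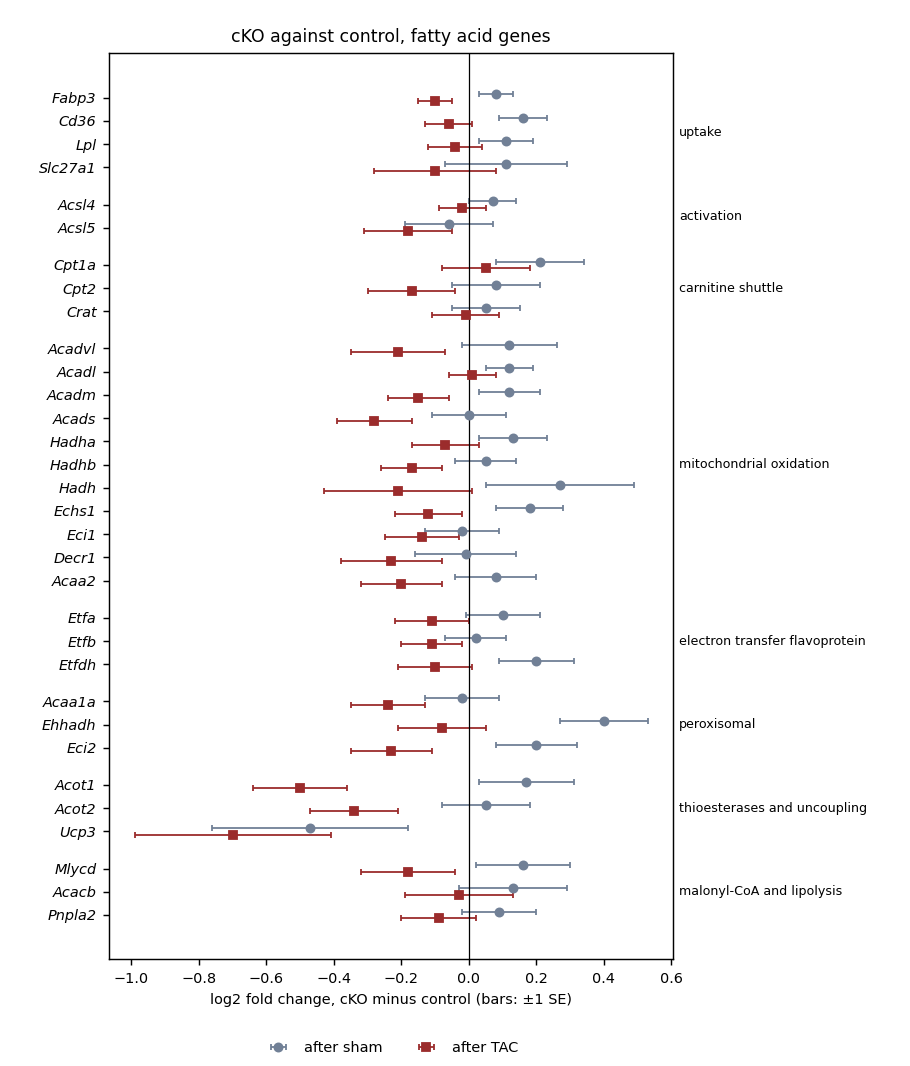
Log2 fold change of cKO against control for each of the 32 genes (x axis, ± SE from limma), ordered by role on the y axis, after sham and after TAC (4 against 4 each). After sham 26 of 32 points lie above 0 and after TAC 30 of 32 lie below 0, with Ucp3 low after both.

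The interaction term, the TAC difference in cKO hearts minus that in control hearts, was below 0 for 32 of 32 genes, with a median of -0.222. Over all probe sets it was -0.012 with 46.8% above 0, and among the 2774 probe sets of mean log2 above 9 it was -0.032 with 38.1% above 0. At an unadjusted p under 0.05, 6 of 32 were below 0 (18.8%, beside 2.05% of all probe sets, and 0 above 0, beside 1.65%): Acot1 (-0.66 ± 0.20), Ehhadh (-0.47 ± 0.18), Eci2 (-0.44 ± 0.16), Acadm (-0.28 ± 0.13), Cd36 (-0.22 ± 0.10) and Fabp3 (-0.18 ± 0.08). Acot1, with the largest of these terms, is the gene of lowest mean signal on the list. The count of 6 was 3 without cKO TAC heart 2, cKO sham heart 3, control TAC heart 1 or control sham heart 3. That count was 12 without cKO TAC heart 4. The adjusted p of the 6 genes was 1 in each case, and 0 of 32 genes and 0% of all probe sets passed. By role, the medians were -0.435 for the peroxisomal genes, -0.392 for the thioesterases and Ucp3, -0.270 for mitochondrial oxidation, -0.215 for the electron transfer flavoprotein, -0.196 for uptake, -0.185 for malonyl-CoA and lipolysis, -0.157 for the carnitine shuttle and -0.107 for activation. The genes of the list vary together between hearts, so a shared direction over 32 genes is not 32 separate results.

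A few hearts carried much of these patterns. The mean of the 32 genes per heart ran from 9.71 to 9.89 (median 9.81) after sham and 9.85 to 10.11 (median 9.98) after TAC in control hearts, and 9.83 to 9.98 (median 9.89) after sham and 9.57 to 9.97 (median 9.87) after TAC in cKO hearts. The cKO TAC heart 2 was the lowest of 16 for 20 of the 32 genes, and it also had the highest Myl7 (8.83), the highest Nppa (13.27) and the highest Adipoq (4.71). It had the lowest mean of cardiomyocyte markers (13.04) and the highest of fibroblast (9.15), macrophage (8.06) and smooth muscle markers (7.72). Among lists described further on, it was lowest for the regulators (7.78) and, with control sham heart 1, for glucose use (10.27). Its low values were thus not confined to the fatty acid genes. Control TAC heart 3 was the highest for 12 genes and control TAC heart 1 for 8. Without cKO TAC heart 2, TAC minus sham in cKO hearts was below 0 for 16 genes with a median of 0.004, and the interaction was below 0 for 31 genes with a median of -0.151. Without the 6 hearts with Myl7 above 6, which left 2 hearts in each TAC group, the first count was 13 of 32 (median 0.029). The second was then 25 of 32 (median -0.111), with 0 genes at an unadjusted p under 0.05. The 8 atrial markers with a probe set, of which 7 passed the filter, averaged 6.00 to 8.05 in cKO TAC, 6.18 to 7.47 in cKO sham, 6.05 to 7.08 in control TAC and 6.00 to 7.43 in control sham hearts, and the part of atrial tissue in the low values was not tested.

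**Figure D4:**
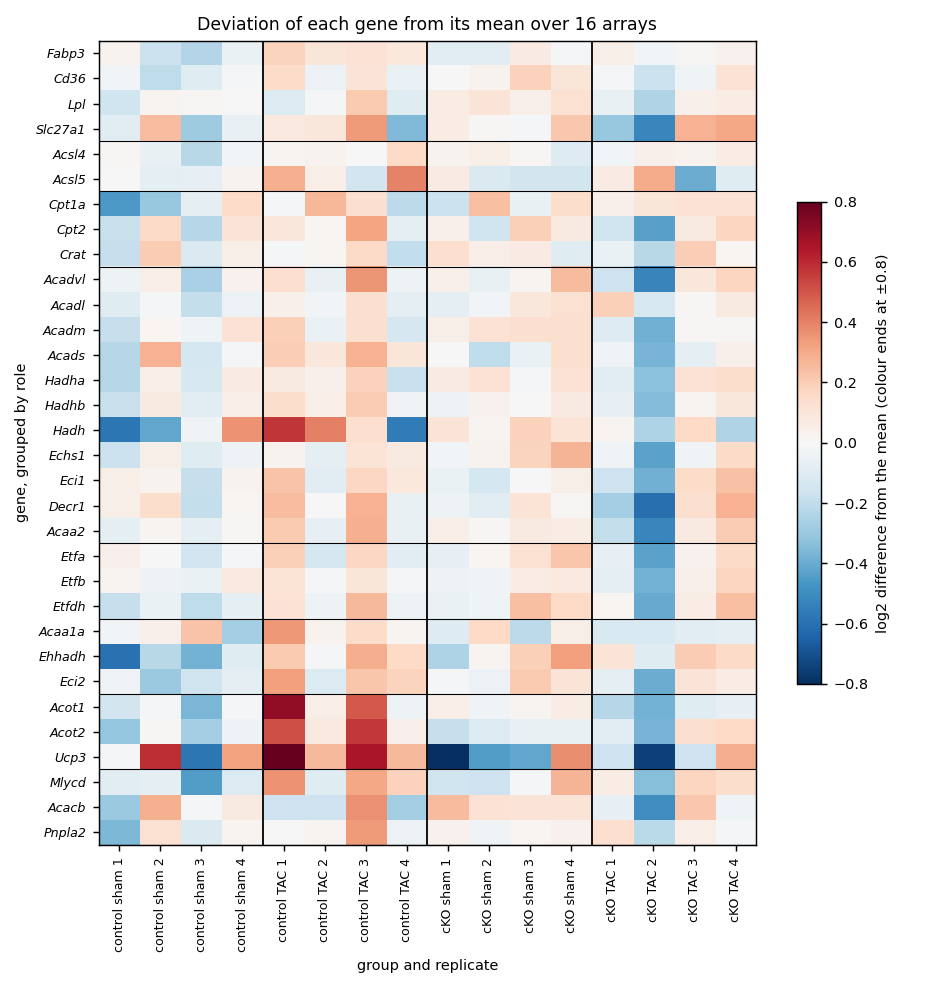
Each gene's log2 intensity minus its mean over the 16 hearts (colour), for the 32 genes (rows, by role) and the 16 hearts (columns, by group). The column of cKO TAC heart 2 is low over most rows, and those of control TAC hearts 1 and 3 are high.

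Within groups the genes varied together from heart to heart. After each value was centred on its group mean, the median Pearson r over the 496 gene pairs was 0.58, with 416 pairs above 0, and it was 0.70 within a role and 0.55 between roles. Without cKO TAC heart 2 the median was 0.43. By permutation within groups, with Benjamini-Hochberg adjustment over the 496 pairs, 226 pairs passed with a positive r and 5 with a negative one. Correlations were computed within the list alone, so no share over all probe sets stands beside these counts. Whether other genes vary together as much was not tested. The highest r was that of Hadha and Hadhb, the 2 subunits of the trifunctional protein (r = 0.96, permutation adjusted p = 0.00386; rho = 0.94, adjusted p = 0.00458; r = 0.93 without the 2 hearts farthest from the median of Hadha; n = 16). Acaa2 and Decr1 had r = 0.95 and Decr1 and Eci1 r = 0.94. Acot1 and Acot2 had r = 0.87 (permutation adjusted p = 0.0112; rho = 0.92, adjusted p = 0.0133; r = 0.88 without the 2 farthest hearts). Acsl5 ran against the rest, with a mean r of -0.48 to the other genes (-0.31 without cKO TAC heart 2), and all 5 negative pairs held it; its r with Lpl was -0.81 (permutation adjusted p = 0.0123; rho = -0.73, adjusted p = 0.0177; r = -0.77 without the 2 farthest hearts).

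Hadha and Hadhb lie head to head on chromosome 5, and their upstream windows share 228 bases on opposite strands. The window of Hadha is shown, the 250 bases before its RefSeq start, 5′ to 3′ on the minus strand at chr5:30154981-30155230 (GRCm38.p6). Its first 228 bases are the shared stretch.
Hadha: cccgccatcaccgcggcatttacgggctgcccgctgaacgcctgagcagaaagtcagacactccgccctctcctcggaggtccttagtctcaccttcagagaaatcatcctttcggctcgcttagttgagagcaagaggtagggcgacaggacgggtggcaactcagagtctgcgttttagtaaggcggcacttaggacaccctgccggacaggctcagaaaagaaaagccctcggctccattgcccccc
None of the motifs searched lay in this window.

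Pdk4, the kinase that shuts pyruvate out of oxidation and a well-known PPAR-alpha target that responds to fasting, was used as a readout outside the list. It read 10.59, 10.79, 10.50 and 11.03 in control sham and 12.02, 10.49, 11.18 and 10.83 in control TAC hearts, with 11.22, 10.49, 10.97 and 11.06 after sham and 10.20, 10.28, 10.74 and 10.89 after TAC in cKO hearts. Control TAC heart 1 stood highest and the groups otherwise overlapped. Its TAC difference was 0.40 ± 0.26 in control and -0.41 ± 0.26 in cKO hearts, with an interaction of -0.81 ± 0.37 (limma adjusted p = 1). Over the 16 hearts, with group means removed, 29 of 32 genes had an r above 0 with Pdk4 (median 0.46, range -0.12 to 0.85). Pdk4 was correlated with the genes of the list alone, so no share over all probe sets stands beside this count. As these genes vary together, it is not 29 separate results. After adjustment over the 32 genes, 2 passed: Acot1 (r = 0.85, permutation adjusted p = 0.0269; rho = 0.85, adjusted p = 0.0096) and Eci1 (r = 0.70, permutation adjusted p = 0.0445; rho = 0.76, adjusted p = 0.0514). Control TAC hearts 1 and 2 were the farthest from the median of Pdk4 once group means were removed. Without them Acot1 kept r = 0.71 (permutation adjusted p = 0.024). Eci1 then had r = 0.71 (permutation adjusted p = 0.119). Acot1 is also the gene of lowest mean signal on the list.

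**Figure D5:**
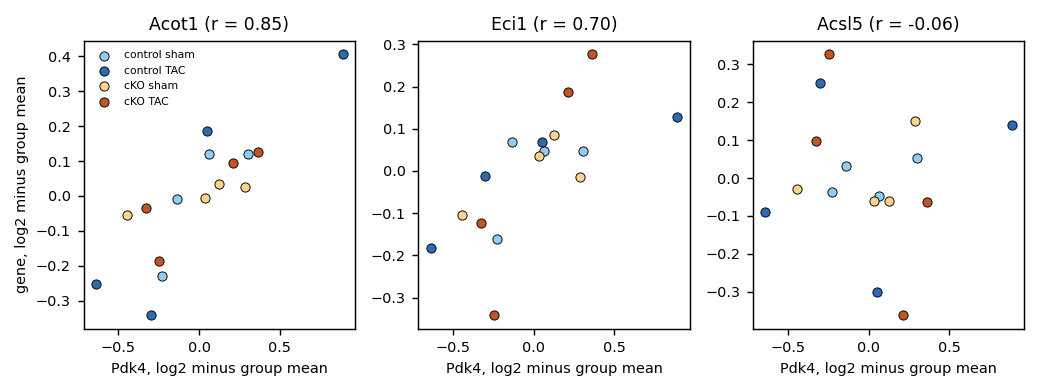
Log2 intensity of Acot1, Eci1 and Acsl5 against that of Pdk4 in the 16 hearts, both as deviations from the group mean, with groups by colour. Acot1 (r = 0.85) and Eci1 (r = 0.70) climb with Pdk4, and Acsl5 (r = -0.06) does not.

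Other genes of fat handling, chosen outside the list, shared part of its pattern. Of 38 such genes above the filter, 27 were above 0 after TAC in control hearts (71.1%, beside 54.8% of all probe sets; median 0.070), 15 in cKO hearts (39.5%, beside 51.9%; median -0.038), and 8 in the interaction (21.1%, beside 46.8%; median -0.084). By limma 0 of 38 passed an adjusted p of 0.05 in any of these. At an unadjusted p under 0.05, 5 of 38 were higher and 1 lower after TAC in control hearts, beside 4.9% and 3.42% of all probe sets. In cKO hearts 1 was higher and 2 were lower, beside 3.85% and 2.93%, and in the interaction 4 were below 0 and 0 above, beside 2.05% and 1.65%. In control hearts these included Slc27a4, a fatty acid transport protein (0.26 ± 0.07), Slc25a20, the carnitine-acylcarnitine carrier (0.40 ± 0.12), and Abcd2, a peroxisomal transporter (-0.56 ± 0.17). In cKO minus control after TAC, Pex11a, a factor of peroxisome division and a PPAR-alpha target, had the smallest p of that list (-0.49 ± 0.14, adjusted p = 0.563), with Acss2, the acetyl-CoA synthetase of the cytosol (0.31 ± 0.12), and Plin5, the droplet coat protein of oxidative tissue (-0.42 ± 0.17), next.

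After TAC in control hearts the regulators lay mostly below 0, where the members lay above it. Of 20 regulators above the filter, 15 were below 0 there (median -0.029), while 54.8% of all probe sets were above 0. In cKO hearts 14 were below 0 (median -0.102), beside 51.9% of all probe sets above 0, and there the members lay mostly below 0 too. Over both genotypes 7 of 20 were lower at an unadjusted p under 0.05, beside 4.8% of all probe sets, and 0 were higher, beside 7.24%, with 0 past the adjusted threshold. Those of smallest p were Esrrg, an oestrogen-related receptor (-0.27 ± 0.10, adjusted p = 0.311), Ppargc1a, which encodes PGC-1alpha (-0.43 ± 0.16, adjusted p = 0.314), and Klf15, a metabolic zinc finger factor (-0.23 ± 0.09, adjusted p = 0.326). Ppara, named for its role, lay at -0.35 ± 0.14 (adjusted p = 0.332). Of 7 PPAR-alpha targets outside the list, 4 were above and 3 below 0 after TAC in control hearts (median 0.165). At an unadjusted p under 0.05, 2 were higher there, beside 4.9% of all probe sets, and 0 lower, beside 3.42%. These were Cidea, a droplet protein, and Slc25a20 (both 0.40), and Slc25a20 is also counted among the other genes of fat handling above. In the glucose list of 22 genes, 11 were above and 11 below 0 over both genotypes after TAC (median -0.012). At an unadjusted p under 0.05, 2 of them were higher, beside 7.24% of all probe sets, and 1 was lower, beside 4.8%. The lower one was Hk2, a hexokinase (-0.33 ± 0.13, limma adjusted p = 0.328). By genotype, 12 glucose genes were above and 10 below 0 after TAC in control hearts (median 0.005), with 6 above and 16 below in cKO hearts (median -0.047). The interaction had 5 above and 17 below 0 (median -0.065), beside 46.8% of all probe sets above 0. For cKO minus control, 19 were above and 3 below 0 after sham (median 0.101), and 15 above and 7 below after TAC (median 0.055). The glucose genes thus shared part of the list's pattern. Of 4 ketone body genes, 2 were above and 2 below 0 over both genotypes after TAC. In cKO minus control over both surgeries 4 of 4 were above 0. Bdh1, which oxidises beta-hydroxybutyrate, had 0.58 ± 0.18 in the first of these (adjusted p = 0.251) and 0.46 ± 0.18 in the second (adjusted p = 0.247). In the interaction 4 of 4 ketone body genes were below 0 (median -0.197), with 0 at an unadjusted p under 0.05.

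Upstream windows were searched for nuclear receptor motifs, since PPAR-alpha and the oestrogen-related receptors bind near many of these genes. RefSeq windows of GRCm38.p6 were found for 31 of the 36 genes (34 windows) and searched on both strands. The direct repeat AGGTCANAGGTCA, with at most 2 mismatches, lay in 4 of the 34 windows (Cd36, Echs1, Etfa and Ucp3; 11.8%) and in 3.24% of all 32851 windows. The single site AGGTCA, which the direct repeat contains and can overlap, lay in 6 (17.6%, beside 14%), and TCAAGGTCA, which also contains it, in 0 (beside 0.387%). These 4 genes came from different roles, and their interaction terms were -0.22 for Cd36, -0.30 for Echs1, -0.21 for Etfa and -0.23 for Ucp3, close to the list's median of -0.222. The windows of Cd36 (minus strand, chr5:17835897-17836146) and Ucp3 (plus strand, chr7:100472741-100472990) are shown 5′ to 3′, as the uptake gene and the uncoupling gene named above, with the direct repeat and the single sites in capitals.
Cd36: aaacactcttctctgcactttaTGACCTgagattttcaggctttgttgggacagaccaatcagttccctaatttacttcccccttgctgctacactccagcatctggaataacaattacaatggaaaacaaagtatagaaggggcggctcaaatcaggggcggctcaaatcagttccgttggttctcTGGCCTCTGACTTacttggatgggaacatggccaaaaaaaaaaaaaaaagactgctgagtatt
Ucp3: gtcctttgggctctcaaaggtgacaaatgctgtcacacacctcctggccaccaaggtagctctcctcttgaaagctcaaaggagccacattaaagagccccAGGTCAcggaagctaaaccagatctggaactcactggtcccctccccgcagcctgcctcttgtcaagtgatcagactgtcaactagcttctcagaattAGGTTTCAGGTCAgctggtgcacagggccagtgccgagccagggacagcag
A match of letters is a description of the sequence and does not show that a receptor binds there.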

How the data were processed

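The table holds 1 column for each of 16 arrays and 35556 probe sets. Its values are log2 signals as the authors deposited them, from 2.34 to 14.35. The submitters' processing notes name MAS5; the scaling of the arrays and the genome build are not given in the sources used here. Probe sets were named through the platform annotation table: 21789 had 1 symbol, 1621 several and 12146 were unlisted. Probe sets with a mean above the 40th percentile (4.37) were tested with limma 3.58.1 (R 4.3.3): 4 group means, a mean-variance trend, 12 residual degrees of freedom and Benjamini-Hochberg adjustment over 21333 probe sets, tested on simulated data first. Correlations used 1e+05 permutations within groups. The number of arrays limits the precision.

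The genes, lists, marker sets and left-out arrays were chosen with earlier results of these data known. Values on every array are given for the 3 genes of smallest p in 5 comparisons and for the gene of highest mean in each role. Other lists are given by counts and up to 3 genes of smallest p. Alternatives were other scalings, filters and fits, a replicate block, averaging over probe sets of a gene, and arrays left out. Genome positions are given for RefSeq upstream windows alone.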

Additional observations from a re-analysis of the deposited data

Results flagged for a closer look

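Of 128 groups of 4 hearts (32 genes in 4 groups), 6 held a heart whose gap to the nearest other heart, divided by the range of the group, exceeded Dixon's critical value for 4 samples. Chance flags about 1 group in 20, so this number is no excess. In cKO sham heart 1, which also had a high Atf3 (9.58), Acacb read 9.46 where the others read 9.31 to 9.32, Acadm read 12.15 where the others read 12.22 to 12.23, and Acsl5 read 6.45 where the others read 6.24 to 6.27. In control sham heart 3, which had the highest Atf3 (10.18) and a Myl7 of 8.62, Eci1 read 10.40 where the others read 10.61 to 10.63, and Mlycd read 7.24 where the others read 7.58 to 7.61. In control sham heart 1, Lpl read 12.63 where the others read 12.79 to 12.81. The gaps of Acacb, Acadm and Acsl5 stand out because the other 3 cKO sham hearts agreed within 0.03.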

How the results depend on the processing

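No gene of the list passed an adjusted p of 0.05 in any of the 7 comparisons under any alternative run. For the 3 genes of smallest p in each of 5 comparisons, the differences kept their sign where they were recomputed. Other genes of the list changed sign under some alternatives, as the counts further on give. Medians over the list did not always keep their sign. For TAC minus sham in cKO hearts (-0.096) the median was 0.004 without cKO TAC heart 2 and 0.029 without the hearts with Myl7 above 6. For cKO minus control over both surgeries (-0.01) it reached 0.046. Of the recomputed values of the comparisons and of the Pdk4 correlation, 552 were scored as the same and 8 as moved, 2 of them for Pdk4. This scoring was loose. A median was the same if it shifted by less than 0.126, the SD within groups of the mean of the 32 genes per heart, so the change from -0.096 to 0.029 was scored as the same. So was a count of 16 genes in place of 23, and the 0 genes that passed under every alternative are included. Of the values of the genes of smallest p, counts at an unadjusted p under 0.05 and counts of probe sets called, 660 were scored as the same and 107 as moved, all of these being counts. Over all alternatives the genes at an unadjusted p under 0.05 numbered 4 to 8 (main value 6) for TAC in control hearts, 0 to 3 (1) for TAC in cKO hearts, 1 to 7 (2) for genotype after sham, 0 to 10 (5) for genotype after TAC and 0 to 12 (6) for the interaction. TAC minus sham in cKO hearts was below 0 for 13 genes without the hearts with Myl7 above 6 (main value 23). In cKO minus control after TAC the same choice gave 16 genes below 0 and a median of 0 (30 and -0.13), and over both surgeries 9 genes below 0 (18). Leaving out 1 heart at a time, TAC over both genotypes was above 0 for 16 to 29 genes, with 29 when cKO TAC heart 2 was left out, and cKO minus control over both surgeries was below 0 for 10 to 23 genes, with 10 without that heart. The interaction was below 0 for 31 or 32 genes without any 1 heart, with medians from -0.304 to -0.151. The number of genes that passed with Pdk4 was 2, and 1 without the 2 farthest hearts and 14 with uncentred values. Same-numbered hearts of different groups did not deviate together (r from -0.205 to 0.193). The labels do not say whether the numbers pair mice, and a low correlation cannot settle it. With the replicate number as a block 0 genes passed in each comparison, and the interaction median stayed at -0.222. Among all probe sets, the number called in cKO minus control ran from 0 to 27 after sham (main value 5) and from 1 to 81 over both surgeries (4). The cause of these moves was not tested. With 4 hearts a group, differences of the size seen here, mostly under 0.3 on the log2 scale, are close to the spread between hearts.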

Other observations

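Macrophage markers were above 0 after TAC in both genotypes, in 8 of 8 genes each, with medians of 0.396 in control and 0.458 in cKO hearts and 0.427 over both, where 6 of 8 were higher at an unadjusted p under 0.05 (7.24% of all probe sets were) and 0 passed the adjusted threshold of limma (smallest adjusted p 0.233). Fibroblast markers were above 0 in 8 of 8 genes over both genotypes (median 0.238). Cardiomyocyte markers were below 0 in 6 of 8 genes over both genotypes (median -0.060). Endothelial markers were below 0 in 10 of 10 genes in cKO minus control over both surgeries (median -0.201, 4 of 10 lower at an unadjusted p under 0.05, beside 6.68% of all probe sets, smallest adjusted p 0.232). Smooth muscle markers were above 0 in 5 of 5 genes in cKO minus control after TAC (median 0.367).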
